A study of Mus musculus with 42 samples.

Results

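Regions bound at day 3 by HOXC9 and HOXC6 but without a listed HOXC10 event were examined in mouse neurons differentiating from embryonic stem cells (ESCs). The sites were selected by a rule on the event lists themselves. The 10000 day 3 HOXC9 events with the most assigned ChIP reads on chromosomes 1 to 19 and X were taken from a list of 74085, and an event was kept when the day 3 HOXC6 list held an event within 100 bp and the day 3 HOXC10 list held none within 100 bp. That left 619 of 10000 sites. Among all 10000 top events, 44.3% had a HOXC6 event and 66.1% had a HOXC10 event, and these 2 shares are fixed by the rule and carry no test. The remaining top events formed 3 other classes: 3809 sites with HOXC9, HOXC6 and HOXC10, 2797 with HOXC9 and HOXC10 only, and 2775 with HOXC9 and neither of the others, called HOXC9-only sites below.

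The study used ESC lines of the Ainv15 background, each carrying 1 tagged Hox gene that doxycycline (Dox) switches on, grown as embryoid bodies (EBs). In the day 3 and day 4 groups, retinoic acid (RA) and the smoothened agonist SAG were given from day 0, which drives EBs towards spinal motor neurons, and Dox from day 2. Day 3 groups thus had 24 h of Dox and covered HOXC6, HOXC8, HOXC9, HOXC10, HOXA9, HOXD9, HOXC13 and 4 chimeras of HOXC10 and HOXC13, while day 4 groups had 48 h of Dox and covered HOXC6, HOXC9 and HOXC10. EB groups of HOXC6 and HOXC9 had 12 h of Dox with no RA or SAG in their labels, and single libraries were made of the partner MEIS at day 3 (iHoxc6, iHoxc9 and iHoxc10 lines) and of PBX at day 4 (iHoxc9 and iHoxc10 lines). Most HOX libraries used a Flag antibody. The second libraries of HOXA9, HOXD9 and HOXC13 came from HA-tagged lines, and the first day 3 HOXC10 library and the MEIS libraries came from V5-tagged lines. Each transgene sits as a single copy at the HPRT locus, so that binding of an induced and tagged protein was read, not of the endogenous one. Every list pools its libraries, so no site has a value per differentiation and the spread between differentiations is unknown here.

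Hox proteins are homeodomain transcription factors that give cells their position along the body axis. In the spinal cord, HOXC6 and HOXC8 mark brachial levels, HOXC9 the thoracic level and HOXC10 the lumbar level, and the motor neurons of these levels innervate different targets. Central factors such as HOXC6 favour the core TAAT. Among posterior factors of the Abd-B type, HOXC9 and HOXC10 favour TTTAT-like sites, and HOXC13 binds motifs that contain TTTAC. MEIS and PBX are homeodomain partners that can bind next to Hox proteins.

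The sequences below lie within 50 bp of the HOXC9 event at sites that carry the results that follow. They were read from GRCm38, the same assembly as mm10, on the plus strand and named after the nearest protein-coding start. Capitals mark TAAT or TTTAT on either strand, so that ATTA and ATAAA are capitalised as well, and the motifs can overlap. The first sites are from the 10 with the most HOXC9 reads. The windows nearest to Tbcel and Zfp703 hold 2 TTTAT matches each, beside 2 and 5 TAAT matches, and those nearest to Frmd4a and Alcam hold 5 TAAT matches each and 0 TTTAT matches. The Frmd4a window is a tandem repeat, in which 58 of 59 bases equal the base 42 bp further on.
Tbcel site, chr9:42484077-42484177: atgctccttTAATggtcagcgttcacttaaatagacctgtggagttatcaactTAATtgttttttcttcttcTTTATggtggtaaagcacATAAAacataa
Zfp703 site, chr8:26661112-26661212: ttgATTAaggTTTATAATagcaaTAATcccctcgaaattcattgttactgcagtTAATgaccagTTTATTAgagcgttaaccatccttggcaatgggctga
Hs3st1 site, chr5:39423872-39423972: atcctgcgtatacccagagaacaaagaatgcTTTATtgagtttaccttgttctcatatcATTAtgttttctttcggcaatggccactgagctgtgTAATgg
Frmd4a site, chr2:3964497-3964597: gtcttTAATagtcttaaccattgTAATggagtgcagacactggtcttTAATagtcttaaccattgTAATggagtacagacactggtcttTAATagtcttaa
Alcam site, chr16:53187659-53187759: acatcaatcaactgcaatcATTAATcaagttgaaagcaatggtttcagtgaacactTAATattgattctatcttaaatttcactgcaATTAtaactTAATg

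The next sites had events in many other lists (nearest to Maf and Schip1) or in few (nearest to Efna5 and Smg6). Each of these windows holds TAAT, which was present at 77.1% of all top events. It was also present in 54.0% of flank windows 1 kb away from the HOXC9 and HOXC6 sites without HOXC10. Whether TAAT varies with the number of lists was not tested.
Maf site, chr8:116053682-116053782: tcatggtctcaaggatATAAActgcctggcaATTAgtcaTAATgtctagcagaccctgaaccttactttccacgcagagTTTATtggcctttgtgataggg
Schip1 site, chr3:68283243-68283343: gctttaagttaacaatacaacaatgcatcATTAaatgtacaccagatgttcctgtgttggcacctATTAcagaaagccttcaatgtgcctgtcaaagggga
Efna5 site, chr17:62146497-62146597: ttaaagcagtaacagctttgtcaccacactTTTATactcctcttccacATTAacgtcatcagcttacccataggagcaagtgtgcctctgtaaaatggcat
Smg6 site, chr11:75115757-75115857: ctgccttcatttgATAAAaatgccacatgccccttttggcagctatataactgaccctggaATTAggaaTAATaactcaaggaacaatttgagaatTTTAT

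The last sites have genes of the Hox system and of neural progenitors as their nearest. Pknox2 encodes a TALE homeodomain factor, Hoxb3 an anterior Hox factor, Cdx2 a regulator of Hox genes in the caudal embryo, and Pax6 and Nkx6-1 progenitor factors of the ventral spinal cord.
Pknox2 site, chr9:37090221-37090321: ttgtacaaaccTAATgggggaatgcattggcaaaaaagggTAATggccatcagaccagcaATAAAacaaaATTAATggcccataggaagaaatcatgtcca
Hoxb3 site, chr11:96322027-96322127: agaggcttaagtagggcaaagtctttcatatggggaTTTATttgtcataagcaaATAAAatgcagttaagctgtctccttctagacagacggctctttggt
Hoxb3 site, chr11:96341147-96341247: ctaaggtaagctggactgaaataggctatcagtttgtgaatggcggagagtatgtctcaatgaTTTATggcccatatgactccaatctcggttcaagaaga
Cdx2 site, chr5:147305429-147305529: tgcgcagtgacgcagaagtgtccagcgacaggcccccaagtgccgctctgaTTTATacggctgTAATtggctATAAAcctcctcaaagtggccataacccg
Pax6 site, chr2:105671184-105671284: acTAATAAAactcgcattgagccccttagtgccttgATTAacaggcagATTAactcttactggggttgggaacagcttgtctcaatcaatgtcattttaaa
Nkx6-1 site, chr5:101543596-101543696: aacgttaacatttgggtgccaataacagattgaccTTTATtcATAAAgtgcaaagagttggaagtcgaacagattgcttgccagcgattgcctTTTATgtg

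The values that chose the sites are given first, as a description. The 619 sites had between 316.4 and 4807 HOXC9 reads, with a median of 484 reads against 605 at sites with all 3 factors and 452 at HOXC9-only sites. The last ranked site of the rule, at rank 10000, and the first outside it both had 316.4 reads. HOXC6 reads at the 619 sites ran from 30.2 to 1235 with a median of 89.5, and the HOXC6 list held an event at the very same base at 475 of them. A further 46 HOXC6 events lay 1 to 20 bp away, 85 lay 21 to 80 bp away and 13 lay 81 to 100 bp away. The 619 sites drew on 600 distinct HOXC6 events, since some neighbouring HOXC9 events shared 1. The 10000 events were divided into 5 equal classes by HOXC9 reads. Of the sites that shared HOXC6, those without a HOXC10 event within 100 bp made up 7.19% in the strongest class, 21.5% in the weakest and 14.0% in all. The 619 sites were therefore weighted to weaker HOXC9 events than the sites with all 3 factors.

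The absence of HOXC10 is set by a distance and by the threshold of the caller. The nearest HOXC10 event lay 101 to 200 bp away at 108 sites (17.4%) and 201 to 500 bp away at 27 sites, so that 135 of 619 (21.8%) had a HOXC10 event within 500 bp although none within 100 bp. At HOXC9-only sites 425 of 2775 (15.3%) had a HOXC10 event at 101 to 500 bp. The remaining 484 sites had none within 500 bp, and the median distance over all 619 was 19467 bp. On the other side of the threshold, 83 sites with all 3 factors had their HOXC10 event at 81 to 100 bp and 2895 had it at the same base. The 3 HOXC10 libraries held 5.04, 18.2 and 21.8 M reads with signal fractions, the share of reads that the caller placed in events, of 0.017, 0.041 and 0.161, the weakest listed HOXC10 event had 44.0 reads, and a site without an event had less than the caller's threshold and not necessarily no protein. The HOXC9 libraries had signal fractions of 0.174 and 0.398 and the HOXC6 libraries of 0.080 and 0.070. The part of depth in the absence of HOXC10 was not tested.

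**Figure D1:**
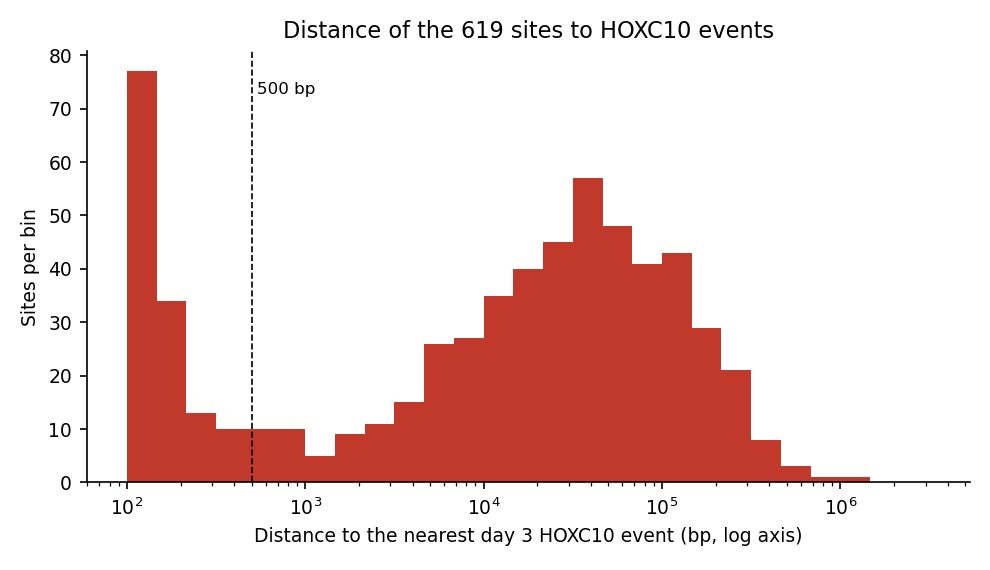
Histogram of the distance from each of the 619 sites to the nearest day 3 HOXC10 event (log axis, bp), with sites per bin on the vertical axis and a dashed line at 500 bp. The distances form 2 groups, with 108 sites at 101 to 200 bp and a broad group around the median of 19467 bp.

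The 18 lists that the rule did not use were then asked how often they held an event within 100 bp. Shares at the 619 sites were compared with the 3809 sites that also had HOXC10 and with the 2775 HOXC9-only sites, as a difference in percentage points with a 95% Newcombe interval that was called when it left out 0. These intervals cover the counting of sites only. Lists differ in size, from 848 to 128388 events, so a share is read against the share over all 10000 top events, and levels are not compared between lists.

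The brachial factor HOXC8 was found at nearly every site. Its list held an event at 604 of 619 sites (97.6%), against 70.5% of all top events. The difference from HOXC9-only sites, of which 36.0% had HOXC8, was 61.6 points (95% interval 59.2 to 63.6), while that from sites with all 3 factors, at 99.0%, was -1.45 points (-3.01 to -0.435). The last difference was no longer called without the sites near HOXC10 (-0.888 points). HOXC8 events at the 619 sites were weaker, with a median of 218 reads and rank 6411 of 44608 events, against 315 reads and rank 3739 at sites with all 3 factors. Thus 67.7% of the sites lay in the top 10000 HOXC8 events, compared with 81.3% of the sites with all 3 factors and 6.27% of HOXC9-only sites.

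The HOX9 paralogs, which share their group number with HOXC9 but lie in other clusters, split these sites. HOXA9 had an event at 556 of them (89.8%, against 91.3% of all top events) and HOXD9 at 354 (57.2%, against 71.0%). For HOXD9 the difference from sites with all 3 factors, at 96.7%, was -39.5 points (-43.5 to -35.6), and that from HOXC9-only sites, at 25.8%, was 31.4 points (27.1 to 35.5). HOXA9 differed by -9.63 points (-12.3 to -7.47) and 14.5 points (11.5 to 17.2). Both paralogs were found at 346 sites (55.9%, against 70.1% of all top events) and HOXA9 without HOXD9 at 210 (33.9%, against 21.2%). HOXD9 without HOXA9 was at 8 (1.29%, against 0.86%) and neither at 55 (8.89%, against 7.8%), both near the share of all top events. HOXA9 without HOXD9 was at 3.02% of sites with all 3 factors and at 50.7% of HOXC9-only sites. Where an event was present it ranked lower than at sites with all 3 factors. Of the 619 sites, 37.3% lay in the top 10000 of HOXA9 and 14.4% in that of HOXD9, compared with 83.3% and 74.1% of sites with all 3 factors. The HOXA9 and HOXD9 lists had 62916 and 56400 events.

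HOXC13, the most posterior factor of the cluster, was less frequent. It had an event at 280 sites (45.2%, against 57.2% of all top events), with a difference of -14.9 points (-19.2 to -10.6) from HOXC9-only sites, at 60.2%. The difference from sites with all 3 factors, at 52.7%, was -7.51 points (-11.7 to -3.26), and it was lost when the comparison was standardised to equal HOXC9 reads (-2.83 points, -7.08 to 1.41). Sites with HOXC13 and sites without it were alike in HOXC8, at 97.5% and 97.6%, and differed in the EB list of HOXC9, at 71.4% and 53.4%, a description within the class with no test.

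**Figure D2:**
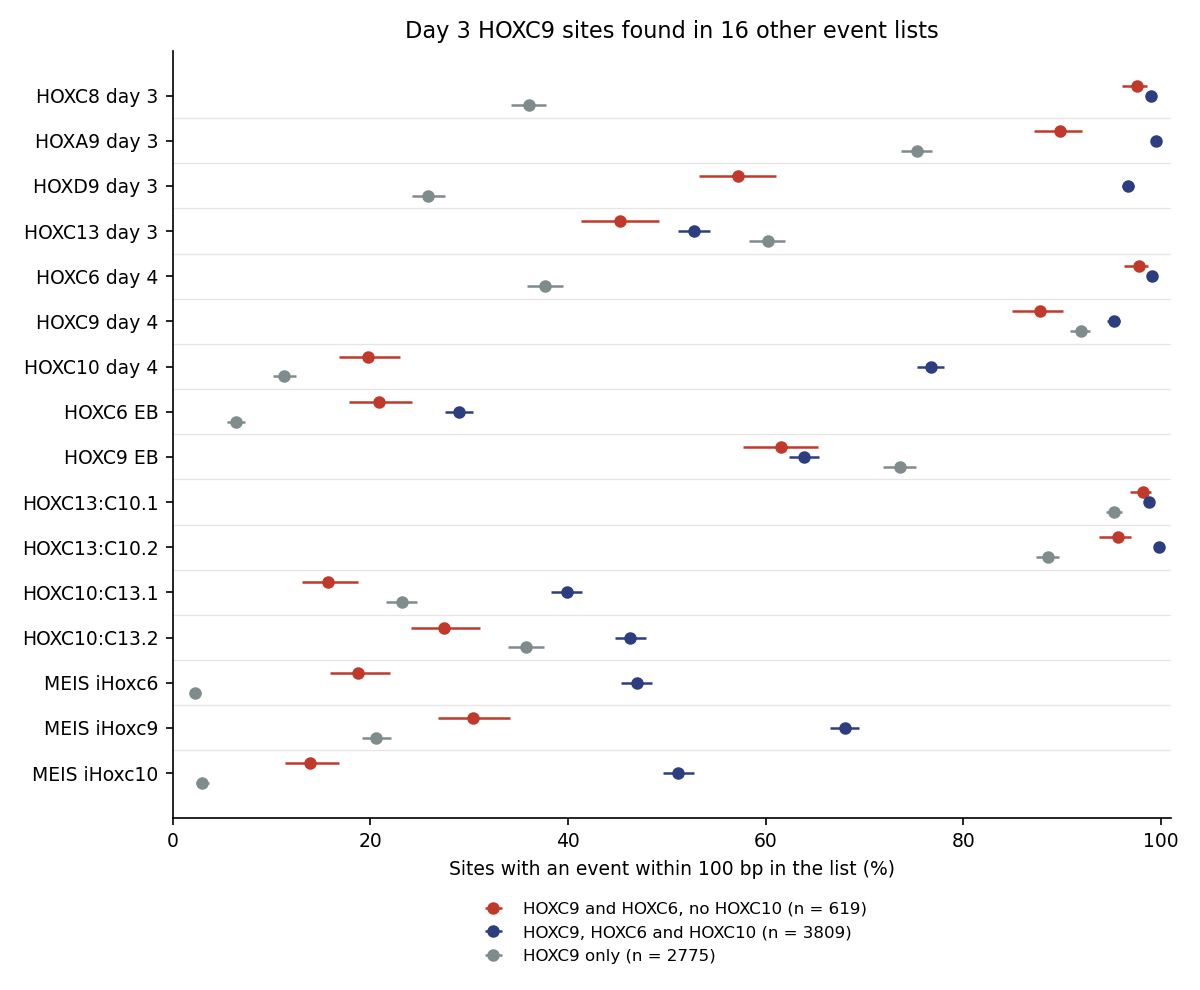
Share of sites (%) with an event within 100 bp in each of 16 other lists, for the 619 HOXC9 and HOXC6 sites without HOXC10, the 3809 sites with all 3 factors and the 2775 HOXC9-only sites, with points for shares and bars for 95% Wilson intervals. The 619 sites lie close to the sites with all 3 factors for HOXC8 and day 4 HOXC6, at 97.6% and 97.7%, and far below them for day 4 HOXC10, at 19.7%.

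Day 4 libraries, made separately, gave an event of HOXC6 and of HOXC9 at most of the 619 sites and of HOXC10 at a minority. Day 4 HOXC6 had an event at 605 of 619 sites (97.7%, against 72.9% of all top events) and day 4 HOXC9 at 543 (87.7%, against 94.2%). Day 4 HOXC10 was found at 122 sites (19.7%, against 51.9%). The difference in day 4 HOXC10 from sites with all 3 factors, at 76.7%, was -57.0 points (-60.2 to -53.4), and from HOXC9-only sites, at 11.3%, it was 8.43 points (5.24 to 11.9). Day 4 HOXC6 differed from HOXC9-only sites, at 37.7%, by 60.1 points (57.7 to 62.1) and from sites with all 3 factors, at 99.1%, by -1.40 points (-2.91 to -0.421), a call that was lost when standardised to equal HOXC9 reads (-1.19 points) or adjusted for all 52 differences. Sites of HOXC9 and HOXC10, which had no day 3 HOXC6 event by the rule, had a day 4 HOXC6 event at 66.6%. The pattern of HOXC6 and HOXC9 with no HOXC10 at day 4 held at 418 sites (67.5%, 95% Wilson interval 63.7 to 71.1), compared with 19.9% of sites with all 3 factors, 28.7% of HOXC9-only sites and 24.4% of all top events. The rule did not use day 4 events, but both days come from inducible lines of the same factors. The weakest listed day 4 event had 71.0 reads for HOXC10, 24.0 for HOXC6 and 34.0 for HOXC9. Mean signal fractions of these lists were 0.051, 0.3075 and 0.164. A site without a day 4 HOXC10 event thus had less than the caller's threshold and not necessarily no protein. The part of this limit in the day 4 pattern was not tested.

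At day 4, HOXC9 itself was less often listed at these sites than at the others, though the call against HOXC9-only sites was lost under several alternatives. Its difference was -7.53 points (-10.4 to -5.06) from sites with all 3 factors, at 95.2%, and -4.13 points (-7.11 to -1.54) from HOXC9-only sites, at 91.9%. The second difference was -3.13 points (-6.18 to -0.622) when sites with a HOXC10 event within 500 bp were left out of both classes, and was not called when they were left out of the 619 sites alone (-1.15 points, -4.22 to 1.36). Among the 122 sites with day 4 HOXC10, MEIS in iHoxc9 cells had an event at 57.4% and HOXC10:C13.2 at 42.6%, compared with 23.7% and 23.7% of the 497 sites without it. Most other lists were also higher, as MEIS in iHoxc6 cells (35.25% and 14.7%) and in iHoxc10 cells (32.8% and 9.26%). HOXC13:C10.1 ran the other way (96.7% and 98.6%). These are descriptions within the class with no test.

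In EBs without RA and SAG, the share of these sites was below that of all top events for HOXC9 and above it for HOXC6. The EB list of HOXC9, with 128388 events, had an event at 381 sites (61.6%, against 68.6% of all top events) and that of HOXC6, with 44751 events, at 129 (20.8%, against 16.8%). EB HOXC6 differed by 14.5 points (11.3 to 17.9) from HOXC9-only sites, at 6.38%, and by -8.09 points (-11.4 to -4.43) from sites with all 3 factors, at 28.9%. EB HOXC9 differed by -12.0 points (-16.2 to -7.89) from HOXC9-only sites, at 73.5%, which was not called with the top 10000 EB events alone (-2.91 points, -5.96 to 0.485). The difference from sites with all 3 factors, at 63.9%, was not called (-2.32 points, -6.50 to 1.73). Both EB lists held an event at 120 sites (19.4%, against 15.9% of all top events) and EB HOXC9 alone at 261 (42.2%, against 52.7%). EB HOXC6 alone was at 9 (1.45%, against 0.93%) and neither at 229 (37.0%, against 30.5%). With and without EB HOXC9, MEIS in iHoxc10 cells was listed at 9.71% and 20.6% of the sites and day 4 HOXC9 at 93.7% and 78.2%. No test was run on this split.

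Chimeras were made by joining the N-terminal part of HOXC13 or HOXC10 to the homeodomain and C-terminus of the other, and the suffix marks the position of the junction. Chimeras with the DNA-binding domain of HOXC10 were listed at most of the 619 sites, in shares near those of all top events. HOXC13:C10.1 had an event at 608 sites (98.2%, against 97.3% of all top events) and HOXC13:C10.2 at 592 (95.6%, against 96.3%), and both were found at 582 (94.0%, against 94.1%). The lists of these chimeras were long, with 99311 and 87315 events, against 26873 for HOXC10. At the sites HOXC13:C10.1 had a median of 569 reads and 52.8% of sites lay in its top 10000, close to the 54.3% at sites with all 3 factors. HOXC13:C10.2 differed in strength, with 232 reads and 27.6% in its top 10000, against 622 reads and 76.7% at sites with all 3 factors. In shares, HOXC13:C10.2 differed from sites with all 3 factors, at 99.8%, by -4.15 points (-6.06 to -2.79), while HOXC13:C10.1 did not differ beyond counting error (-0.543 points, -1.95 to 0.337). The differences from HOXC9-only sites were 7.06 points (4.84 to 8.89) for HOXC13:C10.2 and 2.94 points (1.39 to 4.10) for HOXC13:C10.1, and the second was lost with an interval adjusted for all 52 differences.

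The reverse chimeras, with the DNA-binding domain of HOXC13, were rare at these sites. HOXC10:C13.1 had an event at 97 sites (15.7%, against 33.3% of all top events) and HOXC10:C13.2 at 170 (27.5%, against 42.4%), and neither was listed at 437 sites (70.6%, against 52.9% of all top events and 62.1% of HOXC9-only sites). Both shares lay below those of the 2 comparison classes. For HOXC10:C13.1 the differences were -24.2 points (-27.3 to -20.7) from sites with all 3 factors, at 39.9%, and -7.46 points (-10.6 to -4.03) from HOXC9-only sites, at 23.1%. HOXC10:C13.2 differed by -18.8 points (-22.5 to -14.8) and -8.25 points (-12.1 to -4.20). HOXC10:C13.2 was listed at 126 of the 280 sites with HOXC13 (45.0%) and at 44 of the 339 without it (13.0%), a split with no test.

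MEIS was found at a minority of the sites in each line. The share was 18.7% in iHoxc6 cells (116 sites, against 21.8% of all top events), 30.4% in iHoxc9 cells (188 sites, against 48.6%) and 13.9% in iHoxc10 cells (86 sites, against 27.0%). All 3 shares lay between those of the 2 comparison classes. Against sites with all 3 factors, the differences were -28.2 points (-31.5 to -24.5), -37.6 points (-41.4 to -33.6) and -37.2 points (-40.2 to -33.9). Against HOXC9-only sites, they were 16.5 points (13.5 to 19.8), 9.79 points (5.98 to 13.8) and 10.9 points (8.34 to 13.9). MEIS was listed in no line at 399 sites (64.5%, against 49.0% of all top events) and in all 3 lines at 55 (8.89%, against 17.4%). At sites with all 3 factors these shares were 27.3% and 38.2%, and at HOXC9-only sites 79.0% and 1.48%. MEIS was found in iHoxc6 and iHoxc9 but not iHoxc10 cells at 31 sites (5.01%, against 2.62% of all top events). This share was near the 5.12% of sites with all 3 factors. It was found in iHoxc9 cells alone at 79 sites (12.8%, against 20.1% of all top events). In iHoxc6 cells alone it was at 24 (3.88%, against 1.17%), and in iHoxc10 cells alone at 2 (0.323%, against 0.59%). Each MEIS list rests on 1 library of 9.70 to 12.1 M reads, and the share of reads in events was 0.077 (iHoxc6), 0.238 (iHoxc9) and 0.119 (iHoxc10).

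PBX events were not detected at these sites. Neither PBX list held an event at any of them (0 of 619, where the limit that a count of 0 allows, 3 counts of 619, is a share of 0.485% for counting error only), with 0.28% of all top events listed in iHoxc9 cells and 0.08% in iHoxc10 cells. The lists had 1165 and 848 events and signal fractions of 0.009 and 0.008, the lowest of all lists. The part of this low enrichment in the absence of events was not tested.

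Over the 18 lists, the sites were in a median of 9 lists, with a range from 3 to 15. Sites with all 3 factors were in a median of 12 and HOXC9-only sites in a median of 7. In the middle of their distribution, from the lower to the upper quartile, the 619 sites had 7 to 10 lists.

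**Figure D3:**
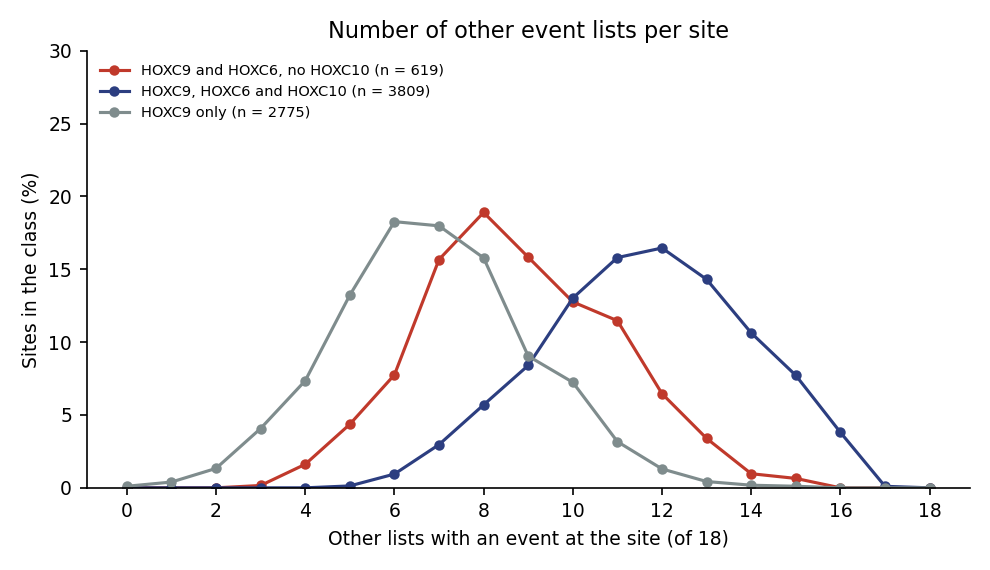
Share of sites in each class (%) by the number of other lists, of 18, with an event within 100 bp. The 619 sites have their highest point at 8 lists, with 117 sites, between HOXC9-only sites and sites with all 3 factors.

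The sites next to a HOXC10 event differed from the rest of the class in MEIS. At the 108 sites with HOXC10 101 to 200 bp away, MEIS in iHoxc6, iHoxc9 and iHoxc10 cells was listed at 36.1%, 50.0% and 38.0%, and at the 484 sites with none within 500 bp at 14.5%, 24.8% and 8.26%. When sites with a HOXC10 event within 500 bp were left out of both classes, 135 here and 425 of the HOXC9-only sites, the MEIS differences were 7.13 points (3.16 to 11.4) in iHoxc9 cells and 7.16 points (4.96 to 9.97) in iHoxc10 cells. Left out of the 619 sites alone, they were 4.22 points (0.264 to 8.51) and 5.31 points (3.06 to 8.16). HOXA9 ran the other way, with 77.8% at the 108 sites and 92.4% at the 484, as did day 4 HOXC9, with 72.2% and 90.7%, and EB HOXC9, with 48.1% and 65.1%. HOXD9 was level, at 57.4% and 57.2%, and day 4 HOXC10 was at 24.1% and 18.0%. These are descriptions within the class with no test.

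**Figure D4:**
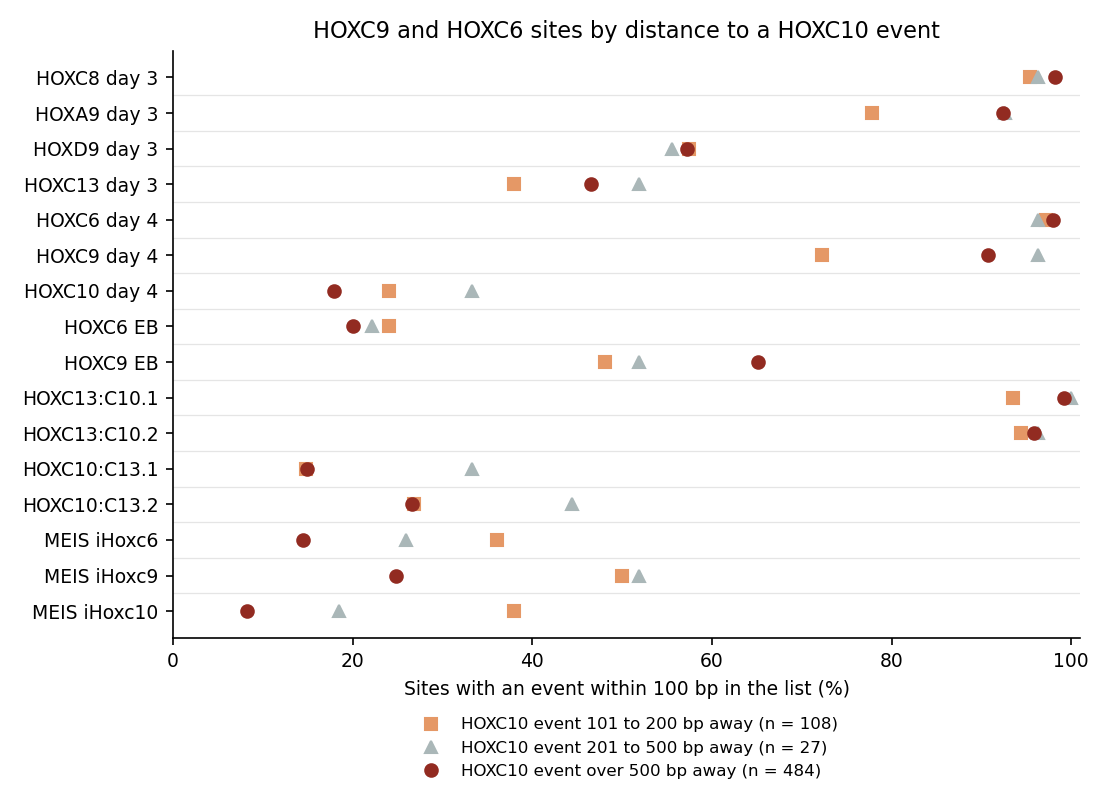
Share of the HOXC9 and HOXC6 sites (%) with an event in each of 16 other lists, divided by the distance to the nearest day 3 HOXC10 event: 101 to 200 bp (n = 108), 201 to 500 bp (n = 27) and over 500 bp (n = 484). MEIS shares are higher near HOXC10, at 38.0% against 8.26% in iHoxc10 cells, and HOXD9 shares are level at 57.4% and 57.2%.

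The sequence around the events was then searched on both strands within 50 bp. The 619 sites shared the central core with all classes and had the posterior core less often than HOXC9-only sites. TAAT was present at 79.5% of the sites (492, against 77.1% of all top events), with differences of 2.66 points (-0.941 to 5.96) from sites with all 3 factors and 1.57 points (-2.11 to 4.96) from HOXC9-only sites, neither called. TTTAT was present at 57.0% (353, against 66.1%), which differed by -18.6 points (-22.8 to -14.4) from HOXC9-only sites, at 75.6%, and by 2.29 points (-1.95 to 6.45) from sites with all 3 factors, at 54.7%. TTTAC, close to the preferred site of HOXC13, behaved in the same way. It was present at 22.3% (against 29.4%), with differences of -10.4 points (-13.9 to -6.51) and -1.26 points (-4.65 to 2.43). TAAT without TTTAT was found at 33.8% of the sites, 35.4% of sites with all 3 factors and 19.9% of HOXC9-only sites. Neither core was found at 57 sites (9.21%), against 9.82% of sites with all 3 factors and 4.43% of HOXC9-only sites. In flanks 1 kb away, TAAT was present in 54.0% of windows and TTTAT in 33.0%, and TTTAC in 19.3%, so that TTTAC stood little above its flanks.

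The 2 composite motifs were rare. TGATTTAT, in which a PBX half-site joins a posterior core, was found at 23 sites (3.72%, against 5.61% of all top events), a difference of -2.32 points (-3.79 to -0.388) from sites with all 3 factors, at 6.04%, and of 0.220 points (-1.22 to 2.12) from HOXC9-only sites. The first of these was lost in a window of 25 bp and with an interval adjusted for all 52 differences. TGATTAAT was found at 9 sites (1.45%, against 1.58%), with differences of -0.226 points (-1.05 to 1.11) and 0.0486 points (-0.807 to 1.39), neither called. TGACAG, the MEIS core, was present at 12.4% (77 sites, against 11.9%), and differed by -0.976 points (-3.60 to 2.04) from sites with all 3 factors and 2.10 points (-0.555 to 5.13) from HOXC9-only sites. Within the class, TGACAG was at 16.5% of sites with MEIS in iHoxc9 cells and 10.7% of those without, with overlapping Wilson intervals (11.9 to 22.5 and 8.10 to 13.9). The E-box CANNTG, bound by helix-loop-helix factors of neurons among others, was at 48.1% (298 sites, against 47.4%), with differences of -5.63 points (-9.84 to -1.38) from sites with all 3 factors, at 53.8%, and 6.84 points (2.52 to 11.2) from HOXC9-only sites, at 41.3%. Neither E-box difference was called with the adjusted interval. The median share of G and C in the window was 39.6%, compared with 41.6% at sites with all 3 factors and 38.6% at HOXC9-only sites.

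Within the class, the posterior core moved with HOXC13 and EB HOXC9, and the central core also moved with EB HOXC9. TTTAT was present at 65.4% (59.6 to 70.7) of the 280 sites with HOXC13 and 50.1% (44.9 to 55.4) of the 339 without. For EB HOXC9 the shares were 62.2% (57.2 to 66.9) with and 48.7% (42.5 to 55.1) without, and the E-box ran the other way, at 43.0% (38.2 to 48.1) with and 56.3% (50.0 to 62.4) without. TAAT was at 82.9% (78.8 to 86.4) with EB HOXC9 and 73.95% (68.0 to 79.1) without, and at 81.1% and 78.2% with and without HOXC13. For EB HOXC6, TTTAT ran the other way, at 48.8% with and 59.2% without. With and without HOXD9, TTTAT was at 56.2% and 58.1%. These splits were chosen after the lists were compared and have no test.

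**Figure D5:**
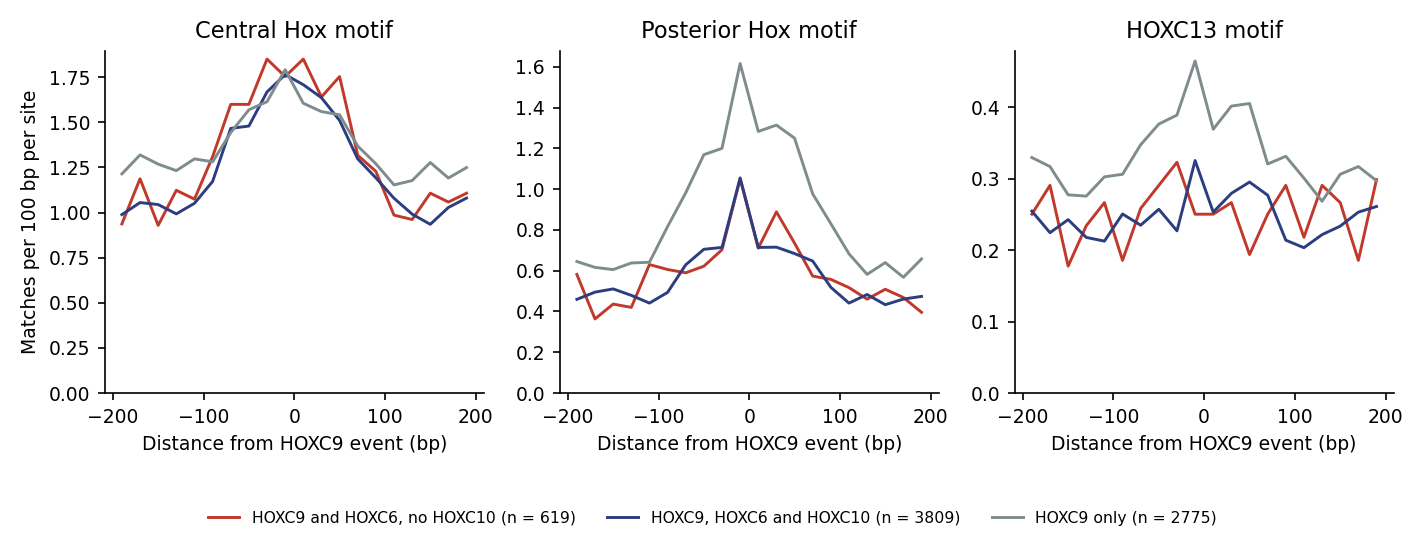
Matches per 100 bp per site in bins of 20 bp, by distance from the HOXC9 event, for the central Hox core (TAAT), the posterior core (TTTAT) and TTTAC, in the 619 sites and 2 comparison classes. Just left of the centre, at -10 bp, the posterior core reaches 1.05 at the 619 sites, 1.05 at sites with all 3 factors and 1.62 at HOXC9-only sites, while the central core is at 1.75, 1.76 and 1.79.

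Most of the sites were far from gene starts in GENCODE release 21. An annotated start of any gene lay within 1 kb at 24 sites (3.88%, against 4.22% of all top events), with differences of -1.14 points (-2.60 to 0.802) from sites with all 3 factors and 1.14 points (-0.290 to 3.05) from HOXC9-only sites, neither called. The median distance to the nearest protein-coding start was 59.5 kb (quartiles 18.1 and 229.5 kb), and 69 sites (11.15%) lay over 500 kb from 1. The median was 60.8 kb at sites with all 3 factors and 78.0 kb at HOXC9-only sites, with 8.45% and 11.5% over 500 kb. Introns held 332 sites (53.6%), exons 17 (2.75%) and intergenic sequence 270 (43.6%), and 309 of 619 (49.9%) lay upstream of their nearest coding start. The other classes were similar. Introns held 50.3% of sites with all 3 factors and 48.3% of HOXC9-only sites, and 47.9% and 46.6% lay upstream. Each chromosome held between 12 and 55 sites, on chromosomes 19 and 2. The X chromosome had 17, which made up 11.9% of its 143 top events, where the autosomes ran from 4.06% to 8.12%. The X share is singled out as the highest of all chromosomes, rests on few events and was not tested. Only 53 sites had another within 10 kb, of which 46 were within 1 kb, and these pairs may share reads.

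The sites were spread over many genes. They were nearest to 523 protein-coding starts, of which 75 had more than 1 site, and no gene had more than 4. Pard3, a polarity scaffold, Dcc, the netrin receptor, and Acvr2a, an activin receptor, had 4 each, of 15, 14 and 16 top HOXC9 events nearest to the same genes. With 3 each came Hs3st1, a heparan sulfate sulfotransferase, Alcam, an adhesion molecule of axons, Lrp1b, a lipoprotein receptor, Cblb, a ubiquitin ligase, Brinp3, Nrg1, the ErbB ligand neuregulin, and the anion exchanger Slc4a3. At Hs3st1, on chr5:39613935-39755475 on the minus strand, 3 of its 4 top events belonged to the class, between 220.7 and 539.9 kb from its start. The class held 619 of all 10000 top events. These genes were named for having the most sites, so that high shares at them follow in part from the choice. Long genes and gene-poor regions collect more sites, and nearness does not show that a gene is controlled from a site.

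Genes of 11 neural and Hox-related lists were looked up among these nearest starts, with the share over all top events beside each. The largest counts were in axon guidance and adhesion. Axon guidance genes had 19 sites at 10 of 50 genes (3.07%, against 2.82% of all top events), among them 4 at Dcc, 3 at Efna5 and sites at Epha7, Robo1, Robo2, Nrp2, Sema6d and Slit3, which encode guidance ligands and receptors. Adhesion genes also had 19 sites, at 13 of 38 genes (3.07%, against 3.52%), with 3 each at the teneurin genes Tenm2 and Tenm3 and 2 each at Cdh2 and Pcdh17. Both shares were near the background.

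Developmental regulators were represented by few sites. Neuronal differentiation factors had 5 sites (0.808%, against 1.02%), at Ebf1, Myt1l, St18 and Zfhx3, progenitor patterning genes 3 (0.485%, against 0.88%), at Irx1, Nkx6-1 and Pax6, and motor neuron identity and column genes 2 (0.323%, against 0.73%), at Mecom and Nrp1. MEIS and PBX cofactor genes had 2 (0.323%, against 0.71%), among them Pknox2. Hox cluster genes had 2 of their 46 top events (0.323%, against 0.46%), both nearest to Hoxb3, while sites with all 3 factors made up 29 of the 46. Notch pathway, pluripotency and caudal axis genes had 1 each, at Dll1, Tfcp2l1 and Cdx2, and retinoic acid receptors and enzymes had 0 of 20 top events. Counts this small give wide intervals, as for the 2 Hox sites (0.0886% to 1.17%).

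Individual sites showed how binding varied around the rule. The site with the most HOXC9 reads lay in an intron of Tbcel, 11.9 kb upstream of the nearest coding start of that gene, and was ranked 6 of all HOXC9 events with 4807 reads over 4.8 control reads. It had 71.4 HOXC6 reads, 855.9 in the HOXC8 list, 146.3 in HOXA9 and 42.6 in HOXD9, no HOXC13 event, and 2234 reads in day 4 HOXC9. The nearest HOXC10 event was 16437 bp away.

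The second site, intergenic and 316.2 kb from Zfp703, had 4669 HOXC9 reads, 105.9 HOXC6 reads and 4852 HOXC13 reads. Its HOXC13:C10.1 event held 6844 reads, and HOXD9 had none. HOXC13 reads were between 157.2 and 1022 at the other 7 of the 10 sites with the most HOXC9 reads that had an event.

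The intergenic site nearest to Alcam lay 733.6 kb upstream of its start. HOXC9 had 1801 reads, HOXC8 1217, HOXA9 532.2 and HOXC6 70.7 at day 3 and 445.9 at day 4, HOXC13 was not listed, and EB HOXC9 had 49.7. The window holds 5 TAAT matches and 0 TTTAT matches. The Hs3st1 site, with 2316 HOXC9 reads, had 44.8 HOXC6 reads and 2858 EB HOXC9 reads.

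Across the 10 sites with the most HOXC9 reads, HOXC6 reads lay between 44.8 and 141.8, at ranks 3456 to 14680 of the HOXC6 list. All 10 had HOXC8, HOXA9, day 4 HOXC6, day 4 HOXC9 and EB HOXC9 events, 8 had HOXC13 and 0 had day 4 HOXC10. Over all top events, the shares with these events were 70.5%, 91.3%, 72.9%, 94.2%, 68.6%, 57.2% and 51.9%, in the same order. Over the 619 sites they were 97.6%, 89.8%, 97.7%, 87.7%, 61.6%, 45.2% and 19.7%. Whether the 10 sites differ from the class was not tested. None of the 10 lay within 500 bp of a HOXC10 event, the nearest being 4333 bp away.

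Sites chosen for the most lists hold MEIS events nearly by construction, since PBX had none. Maf, which encodes a bZIP factor, had an intergenic site at 345.9 kb with 15 lists, with 939.0 HOXC9 reads, 137.5 HOXC6 reads and 270.2 day 4 HOXC10 reads, and with MEIS at 151.1, 188.2 and 175.2 reads in iHoxc6, iHoxc9 and iHoxc10 cells. The site in an intron of Schip1, with 14 lists, had a HOXC10 event of 392.1 reads 111 bp away. At the low end, a site 734.6 kb from Efna5 had 4 lists, among them HOXC8 at 306.7 reads and EB HOXC9 at 1079 reads, and the site in an intron of Smg6 had 4, with HOXC8 at 68.1 reads and HOXC13:C10.1 at 1007.

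Among sites at regulators, an intron of Pknox2 held the strongest, 7.0 kb from its nearest start, with 1730 HOXC9 reads, 472.2 HOXC6 reads at rank 321 of that list and HOXC10 3149 bp away. The Hoxb3 sites had 726.7 and 354.7 HOXC9 reads, a HOXC10 event at 232 and 4080 bp, and day 4 HOXC10 events at both. At Cdx2 an intronic site 1.8 kb from the start had 479.4 HOXC9 reads and 36.9 HOXC6 reads, with HOXC10 42676 bp away, and was in both EB lists. Pax6 had a site 0.6 kb upstream of a start, with 373.1 HOXC9 reads and 54.9 HOXC6 reads and no HOXC10 event within 4211 bp, and Nkx6-1 a site 121.4 kb away, with 445.0 HOXC9 reads and 117.2 HOXC6 reads.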

How the data were processed

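The libraries are ChIP-seq of 42 samples, of which 40 appear in the headers of 21 event lists. Reads were aligned by the authors to mm10 with Bowtie 1.0.1, keeping uniquely placed reads, and binding events were called with MultiGPS, with a control library for each list and q-values under 0.001. The submitters' processing notes also name Picard 2.8.2. Replicates were pooled, and the caller models several conditions together, so that lists can share exact positions. The depth was 5.04 to 32.9 M reads per library. Controls held 4.72 M reads for day 4 and PBX lists, 10.5 M for EB lists and 20.3 or 20.6 M for day 3 lists.

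The deposited columns used are the estimated count of ChIP reads and of control reads per event, log2 values of the fold between both, and a score from the authors' caller that is the q-value on a log2 scale. Other deposited columns hold the authors' edgeR 3.22.5 comparisons between conditions (log2 folds and q-values) and were not used. The deposited position tracks were not used.

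Events were ranked by estimated count, and the rule gave 619 sites. The sites, gene lists and tests were chosen with earlier results of these data known. Shares have 95% Wilson intervals, differences 95% Newcombe intervals, and no p-value is given since no value per replicate exists. Of the 52 differences, 26 were against each of 2 classes that share the 619 sites. Motifs were searched in windows of 101 bp of GRCm38. Genes are from GENCODE release 21, whose symbols matched all genes in the 11 lists, and distances are to the nearest protein-coding transcript start. Named sites are the 10 with the most HOXC9 reads, the 5 with most and 5 with fewest other lists, the 10 genes nearest to most sites and up to 4 sites per gene list, by reads. The text describes a selection of them and prints no sequence from chromosome 18, and some of these sites are not reported here. Counting, interval and motif functions were tested on simulated data. Alternatives in ranking, distance, thresholds, windows, standardisation over 5 read classes and interval level are given in the closing section. Python 3.11.15, numpy 2.4.6, pandas 2.3.3, scipy 1.17.1 and pysam 0.24.0 were used.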

Additional observations from a re-analysis of the deposited data

How the results depend on the processing

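No paired analysis was possible because every list pools its libraries and no site has a value per replicate. For the same reason no replicate could be left out. The number of sites, 619 in the main count, was 621 with ranking by q-value (592 shared), 758 at 50 bp, 536 at 200 bp, 484 with no HOXC10 within 500 bp, 652 with q-values under 1e-10 and 497 with no HOXC10 at day 3 or day 4, all within 1.5 times. Of 388 values under alternatives, 353 kept their direction and call, 20 lost the call, 4 gained it and 11 turned direction. All 11 that turned are small and were not called in the alternative.

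Differences that changed are given in percentage points, and their cause was not tested beyond the alternative itself. With sites within 500 bp of HOXC10 left out of the 619 alone, HOXC8 against sites with all 3 factors was -0.888 and day 4 HOXC9 against HOXC9-only sites -1.15 (calls lost), while EB HOXC9 and HOXC13:C10.1 against sites with all 3 factors turned to 1.21 and 0.407. Leaving such sites out of the HOXC9-only class as well, chosen after seeing the data, turned none of 18 differences and changed no call. Standardised over 5 classes of HOXC9 reads, HOXC8 (-1.25), HOXC13 (-2.83) and day 4 HOXC6 (-1.19) against sites with all 3 factors lost the call, EB HOXC9 turned to 2.91, and PBX in iHoxc9 (-0.376) and iHoxc10 cells (-0.145) gained 1, which rests on 0 events at the 619 sites and is void. With the top 10000 of the other list, HOXC13 against sites with all 3 factors turned to 0.567, and day 4 HOXC9 (-0.578) and EB HOXC9 (-2.91) against HOXC9-only sites lost the call. At q-values under 1e-10 in the other list, EB HOXC9 against sites with all 3 factors turned to 1.17. At 50 bp, day 4 HOXC9 against HOXC9-only sites (-1.03) lost the call and HOXC13:C10.1 against sites with all 3 factors (-3.11) gained it. At 200 bp, these were -2.07 (lost) and 0.240 (turned). With an interval adjusted for 52 differences the values stayed as they were and the calls were lost for HOXC8 (-1.45), day 4 HOXC6 (-1.40), TGATTTAT (-2.32) and CANNTG (-5.63) against sites with all 3 factors and for day 4 HOXC9 (-4.13), HOXC13:C10.1 (2.94) and CANNTG (6.84) against HOXC9-only sites. For motifs this interval was added after seeing the data.

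In a window of 25 bp, TGATTTAT (-1.09) and CANNTG (-3.42) against sites with all 3 factors lost the call, TGACAG turned to 0.135, and TGATTAAT against HOXC9-only sites turned to -0.164. In a window of 100 bp, TAAT (2.81) gained a call against sites with all 3 factors, CANNTG (-2.47) lost it, and TTTAT and TTTAC turned to -1.19 and 0.531. With flank shares subtracted, CANNTG against HOXC9-only sites (5.19) lost the call. With ranking by q-value, TGATTAAT against HOXC9-only sites turned to -0.0933. The 2 differences at gene starts stayed uncalled throughout. The HOXD9, HOXA9, day 4 HOXC10, EB HOXC6, MEIS and HOXC10:C13 differences and those in TTTAT and TTTAC against HOXC9-only sites kept their direction and call under each alternative run, though not their size. With the top 10000 of the other list, HOXA9 and HOXD9 against sites with all 3 factors were -46.0 and -60.0, and at q-values under 1e-10 MEIS in iHoxc9 and iHoxc10 cells against HOXC9-only sites was 3.52 and 3.73.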
